A study of Mus musculus with 4 samples.

Results

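R-spondins, their Lgr receptors and the membrane ubiquitin ligases Znrf3 and Rnf43 were followed through 4 arrays of mouse embryonic dermis. The members are 9 genes chosen by name, Rspo1 to Rspo4, Lgr4 to Lgr6, Znrf3 and Rnf43. The platform annotation gave them 15 probe sets of the 45037 that were not array controls, and each of the 15 named 1 gene alone. A probe set is the group of short probes that reports a transcript. The ligands had 6 probe sets, the receptors 6 and the ligases 3.

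The mutant embryos were KRT14-Cre Ctnnb1(Ex3)fl/+ and the controls were littermates, whose own genotype is not given in the labels. KRT14-Cre makes the recombinase under the promoter of keratin 14, a keratin of the basal epidermis, and the floxed allele loses the exon that marks beta-catenin for degradation. Beta-catenin was thus activated in surface epithelium, whereas the RNA measured came from the dermis underneath. Dorsal skin of E15.5 embryos was split with dispase into epidermis and dermis. There were 2 mutant and 2 control arrays of the Affymetrix MOE430 2.0 design. The series' design text speaks of 2 embryos per genotype, and the labels tie no array to a particular embryo.

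R-spondins are secreted proteins that strengthen Wnt signalling. Znrf3 and Rnf43 are transmembrane ubiquitin ligases that take Frizzled receptors off the cell surface. An R-spondin that binds an Lgr receptor together with a ligase clears the ligase from the membrane, so that Frizzled stays there. In skin, R-spondins are known products of dermal cells, and Lgr5 and Lgr6 are known as markers of epithelial progenitors of the hair follicle.

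RefSeq promoter sequences (GRCm38.p6) were matched for 5 of the 9 genes, and those of Rspo1, Lgr4 and Lgr6 are shown because their signals separated the arrays most clearly among the genes matched. Each runs over the 250 bases before the transcript start that the RefSeq promoter table uses, 5′ to 3′ on the gene's strand, and capitals mark CpG dinucleotides. For Rspo1 and Lgr6 the RefSeq gene itself begins further upstream, so the last bases of those windows lie within the gene's bounds.
Rspo1, chr4:124986180-124986429, plus strand: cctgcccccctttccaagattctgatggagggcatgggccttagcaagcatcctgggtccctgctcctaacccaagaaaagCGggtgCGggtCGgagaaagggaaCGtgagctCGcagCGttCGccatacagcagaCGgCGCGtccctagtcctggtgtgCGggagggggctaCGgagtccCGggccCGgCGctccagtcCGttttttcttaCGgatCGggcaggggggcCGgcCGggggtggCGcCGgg
Lgr4, chr2:109917397-109917646, plus strand: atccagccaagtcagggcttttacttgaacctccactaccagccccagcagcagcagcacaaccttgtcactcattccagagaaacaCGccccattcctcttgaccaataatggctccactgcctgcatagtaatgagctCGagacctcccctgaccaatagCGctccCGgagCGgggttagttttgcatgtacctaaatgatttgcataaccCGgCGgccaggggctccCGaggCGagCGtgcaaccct
Lgr6, chr1:135105277-135105526, minus strand: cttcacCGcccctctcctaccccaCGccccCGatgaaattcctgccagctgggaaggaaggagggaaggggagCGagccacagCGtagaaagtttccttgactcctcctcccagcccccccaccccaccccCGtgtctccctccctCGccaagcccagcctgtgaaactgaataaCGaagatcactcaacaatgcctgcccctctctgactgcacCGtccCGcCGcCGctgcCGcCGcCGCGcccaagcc

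The Rspo1 window held 22 CpG dinucleotides at 66.8% G and C, the Lgr6 window 16 at 65.2% and the Lgr4 window 10 at 55.6%. The medians over 32851 RefSeq windows of the same length were 6 CpG dinucleotides and 52.4%. The core to which TCF and LEF factors bind was searched as CTTTGNN on both strands, where each N had to be A or T. It was present in 0 of the 6 windows of the 5 genes and in 14.84% of all windows.

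The arrays were scaled to 1 mean signal of 150.0 by the authors, and their median signals lay between 28.6 and 32.3. All 4 shared a recorded hybridization time, and each had its own fluidics module, so no module held over 1 array. Each array's instrument record reads mouse epidermis as the sample type, against dermis in the labels. Of 10 dermal fibroblast markers, none was at 0, and their summed signal was 45063 and 29142 on mutant 1 and mutant 2, against 34167 and 40657 on control 1 and control 2. Ctnnb1 gave 4838 and 4398 on the mutant arrays against 5335 and 4721 on the control arrays. The probes' place relative to the deleted exon is not known here, so Ctnnb1 checks no label.

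The arrays did not sort by label in earlier work on these data, which paired mutant 2 with control 1 and mutant 1 with control 2. Markers of hair shaft and matrix epithelium, the cells that build the hair, showed this pairing. The summed signal of 15 such markers was 134.8 and 5382 on mutant 1 and mutant 2, and 4491 and 142.6 on control 1 and control 2. None of the 15 was at 0, which without a detection call does not show that they were expressed. Of the 15, 14 lay higher on mutant 2 and control 1 than on the other arrays, against 23.5% of all 45037 probe sets. The array labels are open to doubt for this reason, but the cause of the pairing was not tested. Mutant and control below mean the arrays as labelled. The pairs are not groups of the labels. Members are therefore described by their value on each array, with no mean over a pair and no test of a pair.

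By label, no member passed the test of mutant against control dermis. Signals were compared as log2(signal + 16) in limma, which understates the change of dim probe sets, and a probe set was tested if its mean over the 4 arrays reached the median of all probe sets, 5.515. This left 7 member probe sets, 1 each for Rspo1, Rspo2, Rspo3, Lgr4, Lgr5, Lgr6 and Znrf3. The other 8 include both Rspo4 and Rnf43, for which no probe set was tested. Of the 7, 0 passed an adjusted p of 0.05, and over all 22519 probe sets tested 0.0% did. In limma, 208 of the 22519 had an unadjusted p under 0.05. The methods' t-test was run on the same log2 values, not on the authors' own. At an uncorrected p under 0.01 and at least 2-fold it passed 3 probe sets, and 270 had an unadjusted p under 0.05. None of the 15 had an unadjusted p under 0.05 in limma. Both mutant arrays lay above both control arrays for 0 of the 7 and below them for 0 of the 7, against 8.69% and 11.8% of all probe sets tested. With 2 arrays per label an exact two-sided permutation test cannot go below 0.333, and a p that misses the threshold does not show that the levels were alike.

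The median log2 difference, mutant minus control, was 0.02 over the 7 members and -0.01 over all probe sets tested. The members' median standard error was 0.58, against 0.19 over all probe sets tested. For Rspo1, Rspo2, Lgr4 and Lgr6 the arrays of the same label lay far apart, and their differences by label had wide errors.

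**Figure D1:**
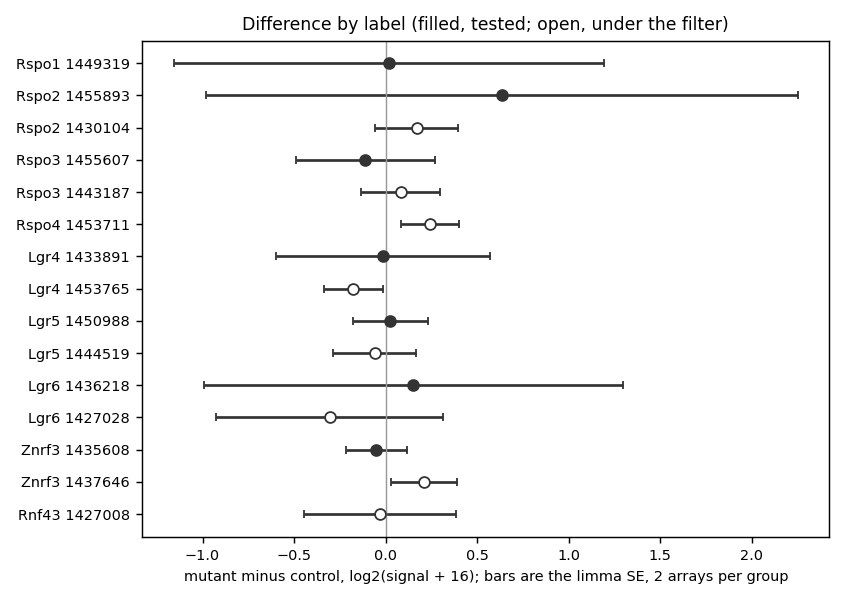
The log2 difference of mutant minus control (x axis, log2 of signal + 16) is plotted for each of the 15 probe sets, with bars for the limma standard error and 2 arrays per group. Filled points were tested and open points lay under the filter; the error bars of Rspo1, Rspo2 and Lgr6 (1.18, 1.62 and 1.15 for the tested probe sets) are the widest.

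Among the ligands, Rspo1 was the tested gene whose signals were higher on mutant 1 and control 2 than on the other arrays. Its probe set gave 177 and 24.8 on mutant 1 and mutant 2, against 16.4 and 221 on control 1 and control 2. Each label thus held a high and a low array, and the labels overlapped. Within the mutants, mutant 1 was 7.15-fold above mutant 2, and within the controls, control 2 was 13.5-fold above control 1. The log2 level averaged 6.47 ± 1.59 in mutant and 6.45 ± 2.03 in control dermis (SD, n = 2 each), a difference of 0.02 ± 1.18 (SE, limma adjusted p = 0.9999). Without control 1 this difference was -1.42 and without mutant 1 -1.10, while without control 2 it was 1.45 and without mutant 2 1.14.

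Rspo2 ran the other way across the arrays. The brighter of its 2 probe sets (1455893_at) gave 25.6 and 279 on mutant 1 and mutant 2, against 286 and 0.853 on control 1 and control 2. Mutant 2 and control 1 were the high arrays and differed by -0.03 on the log2 scale, mutant minus control. Mutant 1 and control 2 were the low arrays and differed by 1.30 in the same direction. The labelled difference was 0.64 ± 1.62 (log2, SE, n = 2 each, limma adjusted p = 0.9999), and its size depended on the pseudocount, with 1.91 at a pseudocount of 1 and 0.22 at 64. It became -1.44 without control 2 and -0.78 without mutant 2, and 2.72 without control 1 and 2.05 without mutant 1.

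The other Rspo2 probe set (1430104_at) did not repeat that order. It gave 23.0 and 22.1 on mutant 1 and mutant 2, against 14.0 and 23.2 on control 1 and control 2, and lay under the filter. The probe sets of this gene therefore disagree, and the large spread of Rspo2 rests on 1455893_at.

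Rspo3 had a smaller spread of the same order as the brighter Rspo2 probe set. Its brighter probe set (1455607_at) gave 293 and 510 on mutant 1 and mutant 2, against 565 and 310 on control 1 and control 2. Mutant 2 was 1.74-fold above mutant 1, and control 1 was 1.83-fold above control 2. The dimmer probe set (1443187_at), under the filter, kept the order with 14.7 and 20.2 on the mutant arrays against 18.8 and 12.5 on the control arrays. By label the brighter probe set differed by -0.11 ± 0.38 (log2, SE, limma adjusted p = 0.9999). This was 0.31 without control 1 and 0.27 without mutant 1, and -0.53 without control 2 and -0.49 without mutant 2.

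Rspo4, whose human counterpart is known for nail formation, had signals of 2.05 and 7.65 on the mutant arrays against 0.937 and 2.01 on the control arrays. It was the only one of the 15 probe sets with both mutant arrays above both control arrays, by 2.05 against 2.01 at the closest, and this order held for 11.7% of all 45037 probe sets. No detection call accompanies the signals used here, so whether so dim a signal stands above background cannot be told.

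**Figure D2:**
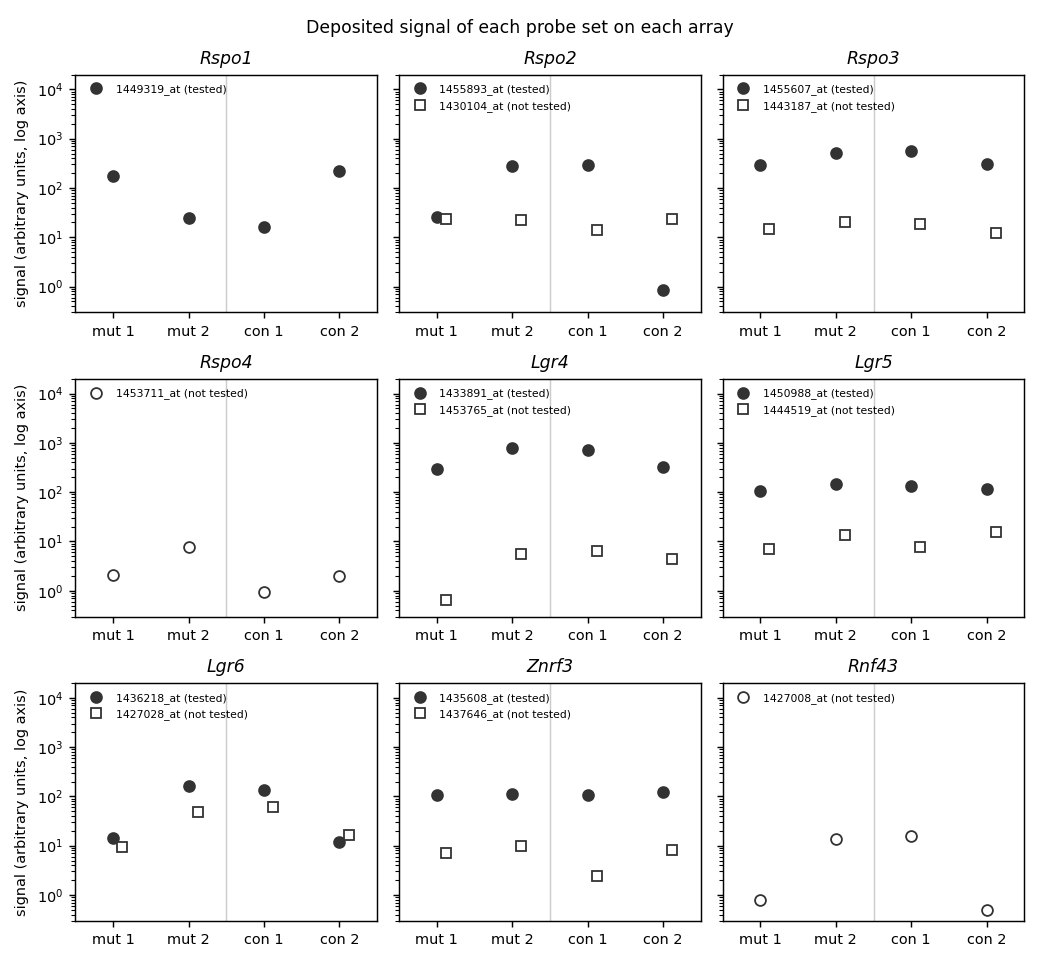
Each panel shows the deposited signal (log axis, arbitrary units) of a gene's probe sets on mutant 1, mutant 2, control 1 and control 2. Filled symbols mark tested probe sets and open symbols those under the filter; Rspo1 is high on mutant 1 and control 2 (177 and 221), whereas Lgr6 is high on mutant 2 and control 1 (159 and 138).

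The receptors Lgr4 and Lgr6 were both high on mutant 2 and control 1. Lgr4, the broadly expressed receptor of the family, gave 292 and 775 on mutant 1 and mutant 2, against 729 and 318 on control 1 and control 2 (1433891_at). The high and low arrays of each label were 2.66-fold apart in mutant and 2.30-fold apart in control dermis. By label the log2 level averaged 8.95 ± 0.96 in mutant and 8.96 ± 0.82 in control dermis (SD, n = 2 each), a difference of -0.02 ± 0.58 (SE, limma adjusted p = 0.9999). The difference was 0.57 without control 1 and 0.67 without mutant 1, and -0.60 without control 2 and -0.70 without mutant 2. The dimmer Lgr4 probe set (1453765_at) lay between 0.646 and 6.43 and was not tested.

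Lgr6 showed the order in both of its probe sets. The brighter (1436218_at) gave 14.1 and 159 on mutant 1 and mutant 2, against 138 and 11.7 on control 1 and control 2. Mutant 2 was 11.3-fold above mutant 1, and control 1 was 11.7-fold above control 2. Both folds rest on the dim signals of mutant 1 and control 2, for which no detection call was used. The dimmer (1427028_at), under the filter, gave 9.32 and 48.3 on the mutant arrays against 60.5 and 16.5 on the control arrays. The labelled difference of the brighter probe set was 0.15 ± 1.15 (log2, SE, limma adjusted p = 0.9999). It turned to -1.08 without control 2 and -1.12 without mutant 2, and was 1.39 without control 1 and 1.42 without mutant 1.

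Lgr5, the third receptor, varied much less. Its brighter probe set (1450988_at) gave 108 and 150 on mutant 1 and mutant 2, against 132 and 118 on control 1 and control 2. Mutant 2 and control 1 were again the higher arrays, but by 1.39-fold and 1.11-fold only. The labelled difference was 0.03 ± 0.21 (log2, SE, limma adjusted p = 0.9999). The dimmer Lgr5 probe set (1444519_at) gave 7.18 and 13.6 against 7.78 and 15.3, in another order, and was not tested.

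The 2 ligases had unlike profiles. Znrf3 was nearly level, at 105 and 111 on mutant 1 and mutant 2 against 105 and 121 on control 1 and control 2 (1435608_at). Its labelled difference was -0.05 ± 0.17 (log2, SE, limma adjusted p = 0.9999). A dimmer Znrf3 probe set (1437646_at) lay between 2.42 and 9.81 and was not tested.

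Rnf43, itself known as a transcriptional target of Wnt signalling, was dim on every array. It gave 0.788 and 13.7 on mutant 1 and mutant 2, against 15.4 and 0.507 on control 1 and control 2. The order was that of Lgr6, at signals that were not tested, and the labelled difference was -0.03 ± 0.41 (log2, SE, n = 2 each).

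Counted over the probe sets tested, 5 of 7 members lay higher on mutant 2 and control 1 than on mutant 1 and control 2, against 26.4% of all probe sets tested. These were Rspo2, Rspo3, Lgr4, Lgr5 and Lgr6. Rspo1 was the 1 member with the opposite order, which 23.6% of all probe sets tested had, and Znrf3 had neither. With a gap of at least 1 log2 unit between the nearest arrays, the first order held for Rspo2, Lgr4 and Lgr6 and the opposite for Rspo1, against 1.23% and 0.737% of all probe sets tested. Over all 15 probe sets the orders held for 9 and 2, against 23.5% and 20.4% of the 45037, and with the gap for 3 and 1, against 0.793% and 0.409%. The part that cell composition had in these orders was not tested, and in bulk tissue fewer cells of a type and less RNA per cell cannot be told apart.

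**Figure D3:**
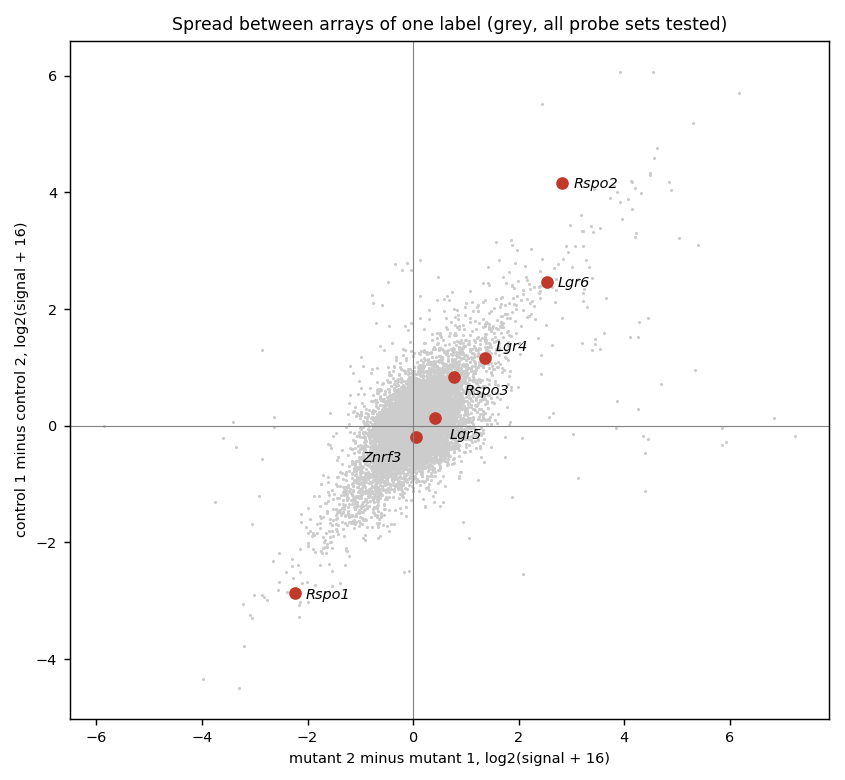
The spread within each label is plotted as mutant 2 minus mutant 1 (x axis) against control 1 minus control 2 (y axis), both in log2 of signal + 16, for all 22519 probe sets tested (grey) and the 7 tested members (red). Rspo2, Lgr6, Lgr4 and Rspo3 lie at the upper right, Rspo1 lies at the lower left (-2.24 and -2.87), and Znrf3 lies near the origin.

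Typical probe sets differed far less within a label than Rspo1, Rspo2, Rspo3, Lgr4 and Lgr6 did. The median absolute difference over all probe sets tested was 0.21 between the mutant arrays and 0.20 between the control arrays (log2). For Rspo1 the corresponding values, mutant 2 minus mutant 1 and control 1 minus control 2, were -2.24 and -2.87. For Rspo2 they were 2.83 and 4.16, for Lgr6 2.54 and 2.47, for Lgr4 1.36 and 1.16, and for Rspo3 0.77 and 0.84. Lgr5 and Znrf3 lay nearer the medians, at 0.42 and 0.14 for Lgr5 and 0.06 and -0.19 for Znrf3.

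Once mutant 2 was set beside control 1 and mutant 1 beside control 2, most members were close. Mutant 2 minus control 1 ran from -0.14 for Rspo3 to 0.33 for Rspo1 over the 7 tested members (log2). Mutant 1 minus control 2 ran from -0.29 for Rspo1 to 0.12 for Lgr6, except for Rspo2 at 1.30. The Rspo2 value rests on signals of 25.6 and 0.853, both low for that probe set.

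The authors' deposited table of changed genes holds 2 of the members among its 153 probe sets. Rspo1 is listed there with a ratio of 0.0268, mutant over control, the 10th lowest of the authors' deposited table. For Lgr4 (1433891_at) the authors' deposited table has 3.18, the 71st highest of its 97 higher entries. The signals on mutant 2 and control 1, taken against mutant 1 and control 2, run in those directions for both genes, and the labels do not. The authors chose the table on these same arrays, so it is not independent evidence of a direction.

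The per-array ratios beside those folds do not give the listed fold of either gene. For Lgr4, the authors' deposited table gives 2.31 and 2.43 for the mutant arrays and 0.953 and 1.05 for the control arrays. For Rspo1, the authors' deposited table gives 0.974 and 0.981 for the mutant arrays and 1.01 and 0.99 for the control arrays, beside its listed ratio of 0.0268. In the authors' deposited table, the mean ratio, mutant over control, of these columns is 2.37 for Lgr4, beside the listed 3.18, and 0.978 for Rspo1. The Lgr4 columns also go against the deposited signals of the arrays they name, on which mutant 1 had 292 and control 1 had 729. The array labels and the authors' deposited table thus disagree for this gene.

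Feedback targets of the pathway, which Wnt signalling switches on and most of which restrain it, fell on both sides. Of 11 measured, 10 were tested and 0 passed by label in either direction, with a median difference of -0.06 against -0.01 over all probe sets tested. Lower on mutant 2 and control 1 were 8 of the 10, the order of Rspo1, against 23.6% of all probe sets tested. The receptor Tnfrsf19 gave 605 and 156 on mutant 1 and mutant 2 against 127 and 626 on control 1 and control 2. The transcription factor Sp5 gave 79.7 and 13.7 against 13.5 and 101, and the scaffold Axin2 gave 144 and 77.4 against 77.5 and 202, in the same order of arrays.

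The other order, higher on mutant 2 and control 1, held for 2 of the 10 tested targets, Dkk1 and Notum, against 26.4% of all probe sets tested. Dkk1, which blocks the Lrp co-receptors, gave 200 and 1042 on mutant 1 and mutant 2 against 1584 and 293 on control 1 and control 2. Notum, an enzyme that inactivates Wnt proteins, gave 90.9 and 162 against 194 and 78.6. Dkk4, under the filter, gave 4.29 and 57.2 against 85.5 and 6.74. Dkk4 thus had the same order, that of Rspo2, Lgr4 and Lgr6. Tnfrsf19, Sp5, Axin2 and Notum were picked after their values were seen.

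**Figure D4:**
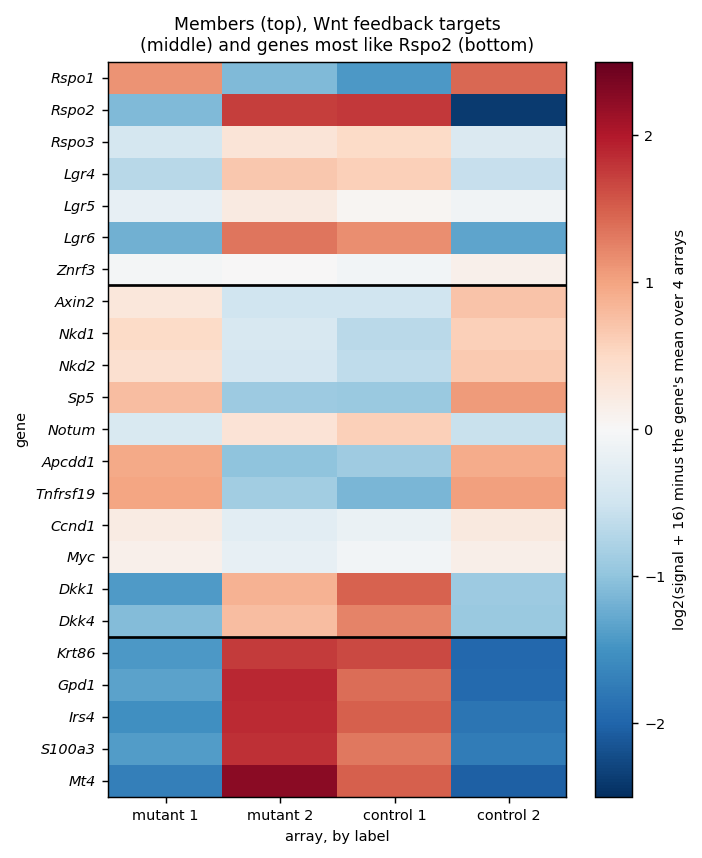
Each row shows the log2 of signal + 16 of a gene on each array, less that gene's mean over the 4 arrays, for the 7 tested members (top), 11 Wnt feedback targets (middle, Dkk4 untested) and the 5 genes whose profile was nearest to Rspo2 (bottom). Rspo1 and targets such as Sp5 are high on mutant 1 and control 2, and Rspo2, Lgr4, Lgr6, Dkk1 and Dkk4 on mutant 2 and control 1.

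The remaining pathway genes did not reach the widest ranges of the members and feedback targets. Fzd10 had the widest range among them, 1.33 log2 units, which was above that of Axin2 (1.22) and Rspo3 (0.91). Of 12 Wnt receptors, 11 were tested and 0 passed by label, with a median difference of 0.01. The 2 with the widest range over arrays were Fzd10, at 53.7 and 83.0 on the mutant arrays against 104 and 31.9 on the control arrays, and Fzd8, at 62.9 and 111 against 56.5 and 43.5. Of 15 transducers measured, 14 were tested and 0 passed, with a median of -0.11. The transcription factor Lef1 gave 251 and 131 on mutant 1 and mutant 2 against 201 and 261 on control 1 and control 2, and Tcf7l2 gave 210 and 391 against 399 and 301.

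Syndecans and glypicans, cell surface proteoglycans of which some bind R-spondins or Wnts, were measured with 8 genes. All 8 were tested and 0 passed by label, with a median difference of 0.10. Gpc4 gave 797 and 514 on mutant 1 and mutant 2 against 436 and 1052 on control 1 and control 2, and Gpc3 gave 1284 and 1388 against 1740 and 933. No gap of 1 log2 unit between mutant 2 with control 1 and the other arrays occurred in the receptors, transducers or proteoglycans, where 0 of the 33 tested genes had it in either direction. Over all probe sets tested, 1.23% had such a gap with mutant 2 and control 1 higher and 0.737% with them lower. A count of 0 in 33 is thus near the share over all probe sets tested. Among the 10 tested feedback targets, 1 had the gap with mutant 2 and control 1 higher and 3 with them lower.

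Among the members Rspo2 had the widest range over the arrays, 4.16 log2 units. The 5 genes nearest to it, by the root-mean-square distance between profiles centred over the 4 arrays, were Krt86 (0.28), Gpd1 (0.33), Irs4 (0.39), S100a3 (0.42) and Mt4 (0.46), out of 11412 genes with a median distance of 1.80. Krt86 encodes a hair keratin and gave 8.63 and 207 on mutant 1 and mutant 2 against 193 and 1.07 on control 1 and control 2. Only 4 arrays stand behind this likeness, and many genes share that order.

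Markers of other cell types differed between arrays beside the members. Hair shaft and matrix markers were high on mutant 2 and control 1, as given above, where Rspo2, Lgr4 and Lgr6 were also high. Krt33a, a hair keratin, gave 0.498 and 632 on mutant 1 and mutant 2 against 594 and 0.605 on control 1 and control 2. Dermal condensate genes, of the dermal cells that gather under the hair follicle, summed to 4832 and 5826 against 6133 and 5293 over 16 genes. Of these, all tested, 7 lay higher and 5 lower on mutant 2 and control 1, against 26.4% and 23.6% of all probe sets tested. A gap of at least 1 log2 unit with mutant 2 and control 1 higher held for 5 of the 16, and the opposite gap for 0. The first gap also held for all 11 tested hair shaft and matrix markers, against 1.23% of all probe sets tested. Hhip gave 52.5 and 354 against 341 and 33.3, and Alpl gave 31.9 and 208 against 128 and 21.9.

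Of 9 dermal fibroblast markers tested, 7 lay lower on mutant 2 and control 1, the order of Rspo1, against 23.6% of all probe sets tested. Among them was Twist2, at 2810 and 909 on mutant 1 and mutant 2 against 1196 and 2943 on control 1 and control 2. Twist1 gave 891 and 313 against 338 and 1192. In that order a gap of at least 1 log2 unit held for 3 of the 9 fibroblast markers, against 0.737% of all probe sets tested. The opposite gap held for 0 of them. Skeletal muscle markers had the same order in 10 of 12 genes and summed to 17831 and 8964 against 3287 and 9687. A gap of 1 log2 unit in that order held for 0 of these 12 genes, against 0.737% of all probe sets tested. By label their median log2 difference was 1.13, and 0 passed the limma test. None of these markers was at 0 on any array, which does not show that they were detected. Their part in the members' profiles was not tested.

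For 7 of 14 epidermal keratinocyte markers tested, Krt14 among them, both mutant arrays lay above both control arrays, against 8.69% of all probe sets tested. Their median log2 difference was 0.94, and 0 passed the limma test. The 14 epidermal markers measured summed to 5866 and 1974 on mutant 1 and mutant 2 against 1719 and 1387 on control 1 and control 2, with Krtdap at 763 and 57.2 against 64.4 and 60.5. Krt14, whose promoter drives Cre, gave 247 and 140 against 112 and 79.7. Of 9 cartilage markers 3 had both mutant arrays above both control arrays, against 8.69%, with a median difference of 2.33 and 0 passing. Another 3 of the 9 lay higher on mutant 2 and control 1, against 26.4% of all probe sets tested. For 2 of these the gap was at least 1 log2 unit, against 1.23%. The 9 cartilage markers summed to 285.9 and 10832 against 320.9 and 314.1, where mutant 2 stood apart, with Col2a1 at 3.14 and 2857 against 13.2 and 17.2. No tested member was high on mutant 1 alone or on mutant 2 alone, and some epidermal and cartilage markers were not either. The part of these markers in the members' signals was not tested. Endothelial markers summed to 4398 and 4474 against 5332 and 5250 over 9 genes, of which 6 had both mutant arrays below both control arrays, against 11.8% of all probe sets tested, and Schwann cell and nerve markers to 566.0 and 621.4 against 436.9 and 482.2 over 5 genes.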

How the data were processed

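Signals of 4 arrays, 2 mutant and 2 control, were used as deposited. They are intensity values on a linear scale, made with GCOS and MAS5 per the submitters' processing notes, whose versions, background steps and detection calls were not given in the sources used here. All arrays had the same trimmed mean in the deposited intensity values, and no further normalization was applied. The authors' deposited table gives a ratio or fold of GCRMA values, filtered by flags, an uncorrected test at 0.01 and a fold of 2, per the file headers.

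Members were found by gene symbol in the platform annotation, and all 9 symbols matched GRCm38.p6 RefSeq. The brightest probe set by mean stands for each pathway or marker gene. Mutant was compared with control in limma 3.58.1 (lmFit, eBayes with an intensity trend, R 4.3.3), two-sided, with Benjamini-Hochberg adjustment over the 22519 probe sets tested. The series' design text speaks of 2 embryos per genotype and the labels tie no array to a particular embryo, so p-values measure the spread between these arrays. The fit was tested on simulated data with independent noise of the same spread on every array. That test does not cover the shared order of arrays seen here. Precision is limited by 2 arrays per group. Tables and plots were made in Python 3.11.15 with pandas 2.3.3, numpy 2.4.6 and matplotlib 3.10.9.

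Same-numbered arrays of the 2 labels deviated in opposite directions (r = -0.62 over probe sets). With 2 arrays per label, differently numbered arrays must then have the same r with the opposite sign, 0.62. This value cannot decide whether the numbers mark pairs, and the main fit used no pairing. The members, lists and pairs were chosen with earlier results of these data known. Genes beside the members were named as up to 2 of each list with the widest range, Ctnnb1 and Krt14, and the 5 nearest to the member with the widest range. Tnfrsf19, Sp5, Axin2 and Notum were named outside this rule, after their values were seen. Alternatives were other pseudocounts, filters, scalings, no trend, the replicate number as a block, each array left out, the methods' t-test and the mean over probe sets.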

Additional observations from a re-analysis of the deposited data

How the results depend on the processing

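The number of probe sets past the threshold by label was 0 and stayed 0 with pseudocounts of 1 and 64, with no filter, with a signal of at least 100 on at least 2 arrays, under quantile normalization and median centring, without the intensity trend and with the replicate number as a block (0, with 96 at an unadjusted p under 0.05). It was 3 by the methods' t-test, at p under 0.01 and at least 2-fold on the signals used here, and 0 after Benjamini-Hochberg adjustment. The crossed replicate block, chosen after seeing the data, gave 108. With every array kept, no member value passed the threshold in the alternative runs summarized for the members. That summary leaves out the crossed block, so whether a member passed in that run is not reported here.

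The direction of the labelled member differences was not stable. Without 1 array, 23 of 60 values turned, over 13 of the 15 probe sets. The log2 differences ran from -1.42 to 1.45 for Rspo1, -1.44 to 2.72 and -0.0235 to 0.36 for Rspo2, -0.53 to 0.31 and -0.0631 to 0.23 for Rspo3, and 0.05 to 0.44 for Rspo4. They ran from -0.70 to 0.67 and -0.37 to 0.0126 for Lgr4, -0.18 to 0.24 and -0.26 to 0.14 for Lgr5, -1.12 to 1.42 and -0.98 to 0.37 for Lgr6, -0.15 to 0.0423 and 0.01 to 0.41 for Znrf3, and -0.49 to 0.44 for Rnf43. Of 136 other values 129 kept their direction. Many of these could not turn, because other filters, no trend, the replicate block and the methods' t-test leave the difference unchanged. The mean over probe sets likewise cannot change a gene with 1 probe set. Rspo1 turned to -0.0046 with median centring, -0.0491 with a pseudocount of 64 and -0.0011 with quantile normalization, and Rnf43 to 0.0421 with a pseudocount of 1. The mean over a gene's probe sets turned Lgr5 to -0.0164, Lgr6 to -0.0775 and Znrf3 to 0.0782. The cause was not tested. Pseudocounts of 1 and 64 moved the Rspo2 difference to 1.91 and 0.22. Signal over background limits Rspo4, Rnf43, the dimmer probe sets and the low arrays of Rspo1, Rspo2 and Lgr6, for which detection is unknown.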
